A study of Mus musculus with 92 samples.

Results

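Haemoglobin and erythroid transcripts are followed here across quadriceps muscle of 92 mice. The 5 genes were taken by name from the expression table: the alpha-globin copies Hba-a1 and Hba-a2, the beta-globin copies Hbb-bs and Hbb-bt, and Alas2. All 5 were among the 13441 genes of the table. The animals were DOz mice, an outbred stock in which each mouse inherits its own mixture of founder alleles. They had been kept on standard chow for life and were about 18 to 20 weeks old. They form a single group with no treatment or genotype contrast, so every comparison below is across animals, and each animal is 1 sample.

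Adult haemoglobin carries oxygen in red blood cells and is built from alpha and beta chains, each holding a haem. Both chains are encoded by neighbouring, nearly identical gene copies, in an alpha cluster and a separate beta cluster. Alas2 encodes the erythroid form of the enzyme that begins haem synthesis. Mouse reticulocytes, the youngest red cells in the circulation, have lost their nucleus but still hold these messages, and muscle fibres themselves store oxygen with a different globin, myoglobin. In a piece of whole muscle, fewer erythroid cells and less RNA per cell cannot be told apart.

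In GRCm38 coordinates of the GENCODE M21 annotation, Hba-a1 (ENSMUSG00000069919) lies at chr11:32283511-32284465 and Hba-a2 (ENSMUSG00000069917) at chr11:32296489-32297298, both on the plus strand. Hbb-bs (ENSMUSG00000052305) lies at chr7:103826534-103828096 and Hbb-bt (ENSMUSG00000073940) at chr7:103812524-103813996, both on the minus strand. Alas2 (ENSMUSG00000025270) lies on the plus strand at chrX:150547375-150570638. The 250 bases before each gene's RefSeq start (GRCm38.p6) are shown because the members rise and fall together across animals, the alpha copies least tightly. Capitals mark matches, on either strand, to the GATA-factor motif (the letters AGATAA and, as variants, AGATAG, and then TGATAA, and last TGATAG) and, besides it, to CACCC, then to CCAAT and last to TATAA. Overlapping matches run together. Windows are chr11:32283422-32283671 (plus strand) for Hba-a1, chr7:103827929-103828178 (minus) for Hbb-bs, chr7:103813924-103814173 (minus) for Hbb-bt and chrX:150547167-150547416 (plus) for Alas2. RefSeq and GENCODE place the starts differently: of the 250 bases, the last 161 lie inside the GENCODE gene for Hba-a1, 168 for Hbb-bs, 73 for Hbb-bt, 42 for Alas2 and 3 for Hba-a2.
Hba-a1: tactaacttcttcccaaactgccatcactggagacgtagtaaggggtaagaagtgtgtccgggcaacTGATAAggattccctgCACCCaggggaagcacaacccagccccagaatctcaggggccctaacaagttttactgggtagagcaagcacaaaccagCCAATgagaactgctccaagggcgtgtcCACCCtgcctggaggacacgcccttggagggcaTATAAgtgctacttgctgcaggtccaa
Hbb-bs: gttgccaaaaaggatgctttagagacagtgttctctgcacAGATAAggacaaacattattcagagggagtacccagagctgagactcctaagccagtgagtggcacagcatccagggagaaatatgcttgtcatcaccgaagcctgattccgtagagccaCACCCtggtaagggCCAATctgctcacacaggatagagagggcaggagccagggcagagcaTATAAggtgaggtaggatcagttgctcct
Hbb-bt: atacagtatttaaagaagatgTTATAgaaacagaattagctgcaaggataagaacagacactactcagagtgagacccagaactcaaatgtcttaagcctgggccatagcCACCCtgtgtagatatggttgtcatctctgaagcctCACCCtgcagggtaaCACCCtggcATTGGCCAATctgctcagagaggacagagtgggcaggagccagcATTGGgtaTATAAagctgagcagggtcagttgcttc
Alas2: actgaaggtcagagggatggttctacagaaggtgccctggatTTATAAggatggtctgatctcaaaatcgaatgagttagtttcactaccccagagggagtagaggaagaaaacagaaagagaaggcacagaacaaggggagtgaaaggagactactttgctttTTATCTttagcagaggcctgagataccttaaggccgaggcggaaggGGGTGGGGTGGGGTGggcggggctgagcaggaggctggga

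The Hba-a2 window is the Hba-a1 window moved by 3 bases: all 247 bases that both windows hold are identical. The deposited levels of the copies nevertheless differ widely (mean 8.51 for Hba-a1 and 6.12 for Hba-a2, log2). The Hba-a1 window holds 1 GATA-factor match, 2 CACCC matches, 1 CCAAT match and 1 TATAA match. Hbb-bs has 1 match to each of the 4 motifs. Hbb-bt has 0 GATA-factor matches, 3 CACCC, 3 CCAAT and 2 TATAA matches, and Alas2 has 1 GATA-factor, 3 CACCC, 0 CCAAT and 2 TATAA matches. Of all 32851 promoters of the same length, 26.5% hold the GATA-factor motif, 52% CACCC, 33.9% CCAAT and 22.8% TATAA, so single matches are common. A match describes letters and shows no binding.

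The copies also share most of their messenger RNA. The Hba-a1 and Hba-a2 transcripts of the annotation align over 537 identical bases and 1 mismatch (99.8% identity), and 161 bases at the 5′ end of the Hba-a1 transcript lie outside the annotated Hba-a2 transcript. Those bases are the end of the Hba-a1 window, which the Hba-a2 window repeats. Of all stretches of 31 bases, 477 are shared, 192 occur only in the Hba-a1 transcript and 47 only in that of Hba-a2, and these counts depend on where the annotation starts each transcript. Hbb-bs and Hbb-bt align with 580 identical and 46 mismatched bases (92.7%), and share 400 stretches, with 198 stretches found only in Hbb-bs. The split of reads between Hba-a1 and Hba-a2 therefore rests on few bases and is uncertain. The sum of both copies does not depend on that split.

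The labels give quadriceps, and markers of fast skeletal muscle were high: the fast myosin Myh4 averaged 15.90 and skeletal actin Acta1 14.60 on the deposited log2 scale, on which the anti-logs of a sample add up to between 898071 and 1140761 (median 1006085). Sample medians lay between 3.43 and 3.55. The number of reads per library is unknown from these values, so counting error cannot be given. Sample titles carry numbers that fall into 5 runs of 33, 14, 21, 11 and 13 animals, separated by gaps of over 30. What a run or a library-name number stands for is not given in the labels.

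All 5 erythroid genes varied between animals by 136-fold or more, and by 50.8-fold or more without the 1 animal that was highest for every member. The main alpha copy, Hba-a1, ran from 6.06 in the lowest animal through a median of 8.46 to 13.59 in the highest (log2, mean 8.51 ± 1.20 SD, n = 92), a 185-fold range. Hbb-bs, the main beta copy, ran from 6.07 through 8.29 to 13.16 (mean 8.45 ± 1.13 SD, n = 92), a 136-fold range. These 2 genes were the highest of the set in every animal, Hba-a1 in 55 and Hbb-bs in 37.

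The lesser copies lay between the main copies and Alas2. Hba-a2 ran from 2.93 through 6.07 to 10.06 (mean 6.12 ± 1.40 SD, n = 92), a 140-fold range. Hbb-bt ran from 3.37 through 5.94 to 11.17 (mean 5.96 ± 1.17 SD, n = 92), a 224-fold range. Alas2, an enzyme message and the least abundant of the 5, ran from 1.18 through 3.57 to 8.68 (mean 3.70 ± 1.18 SD, n = 92), a 180-fold range.

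Neighbours in this order overlapped widely. The means of Hba-a1 and Hbb-bs differed by far less than the SD of either, and so did those of Hba-a2 and Hbb-bt. Per kilobase of spliced transcript the mean log2 levels were 9.12 for Hbb-bs, 9.02 for Hba-a1, 6.98 for Hba-a2, 6.47 for Hbb-bt and 2.67 for Alas2. On that scale Hbb-bs was the highest in 55 animals and Hba-a1 in 37. The lengths depend on where the annotation starts each transcript. That of Hba-a1 (699 bases) has 161 bases at its 5′ end that lie outside that of Hba-a2 (554 bases). Which main copy leads thus depends on whether length is counted and on the annotated starts.

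The spread was far above that of other genes at the same level. A smooth trend of SD on mean put the usual SD at 0.20 to 0.27, against 1.13 to 1.40 for the erythroid genes. Ranked among all 13441 genes by the excess over that trend, Hba-a2 was 15th, Hba-a1 24th, Hbb-bt 32nd, Hbb-bs 36th and Alas2 78th. Together the 5 genes made up a median of 0.0790% of the summed expression of a sample, from 0.0168% to 2.55%.

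A single animal of run 2 was highest for all 5 genes and held the 2.55%. The next animal stood at 0.918%. Without the first, the ranges were 64.9-fold for Hba-a1, 104-fold for Hba-a2, 55.7-fold for Hbb-bs, 50.8-fold for Hbb-bt and 59.2-fold for Alas2 (n = 91). Hba-a1 was 13.59 in that animal against 12.08 in the next, Hbb-bs 13.16 against 11.87, Hbb-bt 11.17 against 9.03, Hba-a2 10.06 against 9.63 and Alas2 8.68 against 7.07. Of the 10 highest animals for each gene, 6 were shared by all 5 genes and 7 by the 4 genes other than Hba-a2. At the low end the overlap was smaller, with 1 animal among the lowest 10 for all 5 genes and 5 for the 4 without Hba-a2.

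**Figure D1:**
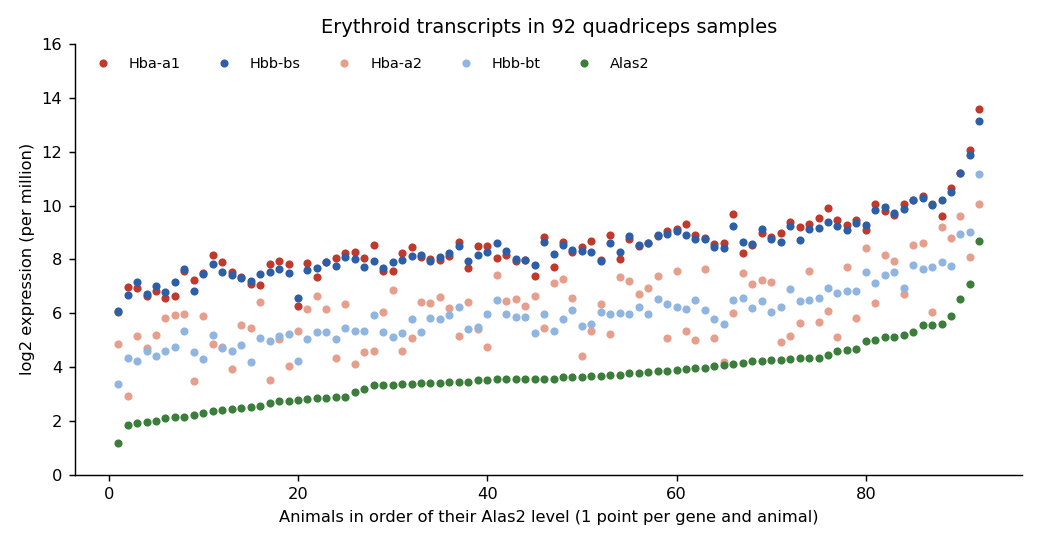
Log2 expression of the 5 erythroid genes (colours) in each of the 92 animals, ordered along the x axis by Alas2; 1 point is 1 gene in 1 animal. Hba-a1 and Hbb-bs climb with Alas2 and end at 13.59 and 13.16 in the last animal, Hbb-bt follows at a lower level, and Hba-a2 scatters between 2.93 and 10.06.

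Across animals the erythroid genes moved together, and Hba-a2 followed least closely. In limma fits over the whole table (slope of each gene on the standardised level of 1 member, Benjamini-Hochberg adjustment over 13440 genes), the other 4 members passed at an adjusted p below 0.05 with each member in turn. Per SD of Alas2, Hbb-bt rose by 1.14 ± 0.03 (SE), Hba-a1 by 1.13 ± 0.04, Hbb-bs by 1.10 ± 0.03 and Hba-a2 by 0.97 ± 0.10, with adjusted p from 8.5e-57 to 7.22e-12. Of all genes tested, 0.223% (30) rose with Alas2 and 0.00744% (1) fell, so a call was rare. The corresponding shares rising were 0.253% with Hba-a1 (34 genes), 0.119% with Hba-a2 (16), 0.253% with Hbb-bs (34) and 0.238% with Hbb-bt (32). Without the animal highest for every member, the slopes on Alas2 were 0.98 for Hbb-bs and 0.88 for Hba-a2, and all 4 members stayed past the threshold.

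Pearson's r between Hbb-bs and Alas2 was 0.972 (Spearman's rho 0.962, permutation p 1e-05 for both), 0.961 with the 2 most extreme animals dropped, and 0.953 to 0.991 inside the 5 runs. For Hba-a1 and Hbb-bs, which lie on different chromosomes, r was 0.977 (rho 0.964, permutation p 1e-05), 0.967 with the same kind of animals dropped, and 0.879 to 0.994 inside the runs. The lower ends of these ranges are from run 3 for both pairs. Hbb-bs and Hbb-bt, the copies of the beta cluster, had r = 0.974 (rho 0.963, permutation p 1e-05), with 0.940 to 0.983 within runs and 0.965 without the 2 farthest animals.

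The alpha copies were the most loosely tied pair. Between Hba-a1 and Hba-a2 r was 0.562 (rho 0.417, permutation p 1e-05 and 6e-05), 0.484 with the 2 most extreme animals dropped and 0.290 to 0.689 inside the runs. Hba-a2 was closer to the beta copies and Alas2, with r between 0.691 and 0.700, than to its own neighbour in the cluster. The limma adjusted p of the alpha pair, 1.99e-06, was the largest of the 10 pairs. The remaining pairs of Hba-a1, Hbb-bt and Alas2 had r from 0.944 to 0.967, each with a permutation p of 1e-05, the smallest that 100000 resamples can give.

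Adding up the copies of each cluster removed most of that looseness. Summed alpha expression ranged from 6.58 to 13.71 and summed beta expression from 6.27 to 13.48 (log2). Across the 92 animals the sums had r = 0.994, with 0.983 to 0.995 within runs, given as a description because both sums come from the same libraries. The sums had r = 0.968 (alpha) and 0.975 (beta) with Alas2.

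The alpha to beta balance was narrow. The log2 difference of the sums averaged 0.14 ± 0.13 (SD, n = 92), from -0.15 to 0.42, and was above 0 in 80 animals and below in 12. Per base of annotated transcript it averaged 0.08 ± 0.13, above 0 in 64 and below in 28, a smaller lean towards alpha. This direction rests on the annotated lengths, which depend on where each transcript starts, and other starts were not tested. The mean was 0.15, 0.14, 0.15, 0.10 and 0.13 in runs 1 to 5, with SDs of 0.10 to 0.15, so the runs did not differ beyond their spread. Had the log2 values of the copies been averaged instead of their expression summed, the SD would have been 0.43, more than 3 times as large.

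**Figure D2:**
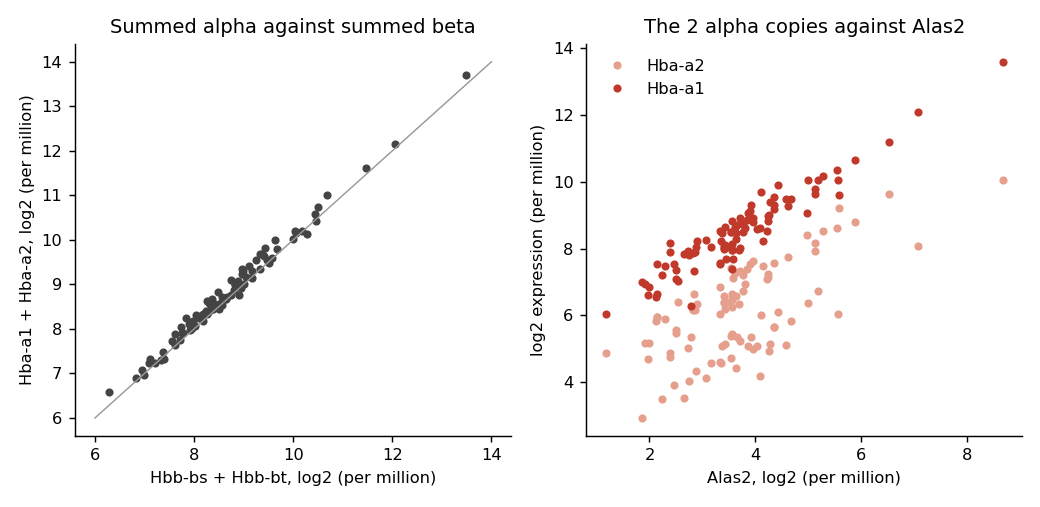
Left, summed Hba-a1 and Hba-a2 against summed Hbb-bs and Hbb-bt (log2), 1 point per animal, with the line of equality; right, Hba-a1 and Hba-a2 against Alas2 (log2). The sums follow the line with differences of -0.15 to 0.42, while Hba-a2 splits into bands at a given Alas2 level.

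The balance of the 2 alpha copies fell into separate stretches. Hba-a1 exceeded Hba-a2 in all 92 animals, by 0.40 at the least, 1.76 at the median and 4.41 at the most (log2, mean 2.38 ± 1.23 SD). No animal lay between 1.94 and 2.89: 53 animals stood below this step of 0.96 and 39 above it. A second, smaller step of 0.24 left 13 animals between 0.40 and 0.93, 40 between 1.17 and 1.94, and 39 between 2.89 and 4.41. That step hardly stands out: inside the top stretch the lowest animal stood at 2.89 and the next at 3.11, a gap nearly as wide. These 3 stretches were set after the values were seen and are a description only.

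In linear terms, Hba-a2 made up 34.4% to 43.1% of summed alpha expression in the 13 animals, 20.7% to 30.8% in the 40, and 4.49% to 11.9% in the 39. The stretches recurred in every run for the upper 2: runs 1 to 5 held 14, 7, 9, 4 and 5 of the 39 animals, and 13, 7, 9, 5 and 6 of the 40. The 13 animals fell 6, 0, 3, 2 and 2 over the runs, so run 2 alone lacked them. By the rule of a step of at least 1 with at least 5 animals on either side, 0 of the 5 genes and neither copy difference had a 2-level split. At a step of 0.5 the alpha difference was the 1 that passed. Among 11116 single genes with a mean of at least 1, 0.351% (39) had a step of at least 1 and 0.801% (89) one of at least 0.5, and the members' own widest steps were 0.21 to 0.31.

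The beta copies had no such break. Hbb-bs exceeded Hbb-bt by 1.75 to 3.17 with a median of 2.51 (log2, mean 2.49 ± 0.27 SD, n = 92), and the widest step between neighbouring animals was 0.05. The SD of the alpha difference was thus several times that of the beta difference. The alpha transcripts are the more alike, and how far the uncertain split of their reads widens the difference was not tested. Over the 92 animals the alpha copy difference had r = 0.170 with summed alpha expression (-0.119 to 0.503 inside the runs). With Alas2 r was 0.130 (-0.330 to 0.564) and with the alpha to beta balance 0.123 (-0.191 to 0.653). These are descriptions of measures that share genes or libraries, and their sign was not the same in every run. In the limma fits on the alpha difference, the adjusted p was 0.828 for Alas2, 0.772 for Hbb-bs and 0.844 for Hbb-bt, with slopes of 0.15 ± 0.12, 0.19 ± 0.11 and 0.14 ± 0.12 per SD.

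**Figure D3:**
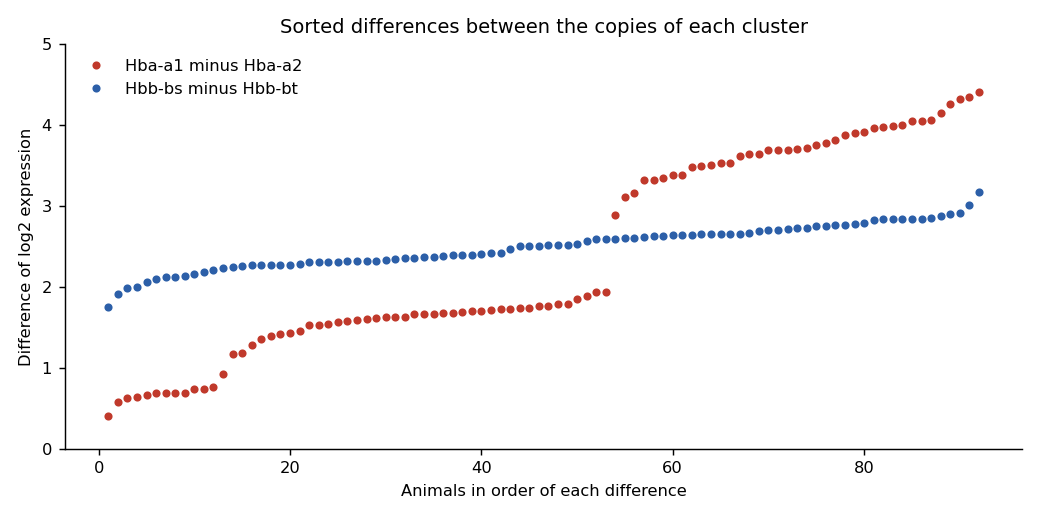
Log2 difference between the copies of each cluster in the 92 animals, each series sorted from low to high along the x axis, 1 point per animal. Hba-a1 minus Hba-a2 rises in stretches with an empty interval from 1.94 to 2.89, while Hbb-bs minus Hbb-bt rises smoothly from 1.75 to 3.17.

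A copy difference leaves out what both copies of a cluster share, and the genes that vary with it were sought over the whole table. With Hba-a1 minus Hba-a2, 2 of 13439 genes (0.0149%) passed in limma, and both lie on chromosome 11 within 5 Mb of the alpha cluster. Erlec1, a lectin of the endoplasmic reticulum, lies at chr11:30930774-30954335 (minus strand), 1.33 Mb before the cluster. Its level ran from 4.45 through 5.04 to 5.46. It fell by 0.10 ± 0.02 (SE) per SD of the difference (adjusted p 0.00208, r -0.518, rho -0.484, permutation p 1e-05 for both), and r was -0.495 once the 2 farthest animals were dropped. Inside the runs r ranged from -0.734 to -0.324.

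Bod1, a regulator of chromosome attachment at mitosis, lies at chr11:31665181-31671885 (minus strand), 0.612 Mb before the cluster, and ran from 5.82 through 6.33 to 6.78. It also fell by 0.10 ± 0.02 per SD (adjusted p 0.0118, r -0.474, rho -0.497, permutation p 1e-05 for both), and r was -0.499 without the 2 farthest animals. Within runs its r ranged from -0.687 to 0.232, so the relation did not hold in every run. Neither gene shows the wide break of the copy difference, since their widest steps were 0.04 and 0.06.

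Near the beta cluster, 1 gene varied with Hbb-bs minus Hbb-bt (0.00744% of 13439). Trim5, an antiviral factor of a multigene family, lies at chr7:104263386-104288094 (minus strand), 0.435 Mb from the cluster. Its level ran from -3.86 through 0.66 to 2.48, with a widest step of 0.51 that left 40 animals at or below 0.02 and 52 at or above 0.53. It fell by 0.99 ± 0.11 (SE) per SD of the difference (adjusted p 1.07e-09, r -0.672, rho -0.633, permutation p 1e-05 for both), and r was -0.668 once the 2 farthest animals were dropped. Inside the runs r ranged from -0.849 to -0.513.

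With the single beta copies Trim5 had r of only -0.157 (Hbb-bs) and 0.00 (Hbb-bt), so its relation is to their balance. How far Trim5 shares reads with other members of its family was not tested, so its level is uncertain. Its mean of 0.17 is low, and a filter on genes with a mean of at least 1 removes it from the test.

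Around both clusters many genes had a low unadjusted p with the copy difference without passing. Within 5 Mb of the alpha cluster, 19 of 40 genes (47.5%) had an unadjusted p below 0.05, against 7.13% of the 13399 other genes. Within 5 Mb of the beta cluster it was 33 of 91 genes (36.3%), against 8.71% of the other 13348. Neighbouring genes in outbred mice share inherited segments and are not independent, so these shares are descriptions. Stk10, a kinase gene 0.236 Mb after the alpha cluster, had r 0.424 with the alpha difference (slope 0.14 ± 0.03) at an adjusted p of 0.130, and Eml6, 2.26 Mb before it, had r -0.394 (slope -0.29 ± 0.07) at 0.286. Near the beta cluster, Rps3 had r -0.427 (slope -0.14 ± 0.03) and Ilk r 0.429 (slope 0.09 ± 0.02), both at an adjusted p of 0.0705, and Plekhb1 had r -0.384 (slope -0.20 ± 0.05) at 0.138. These near misses, all taken from within 5 Mb of a cluster, lay in both directions. Of the 10 smallest p in each limma fit, 4 belonged to genes within 5 Mb of the cluster and the rest to genes not placed there.

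**Figure D4:**
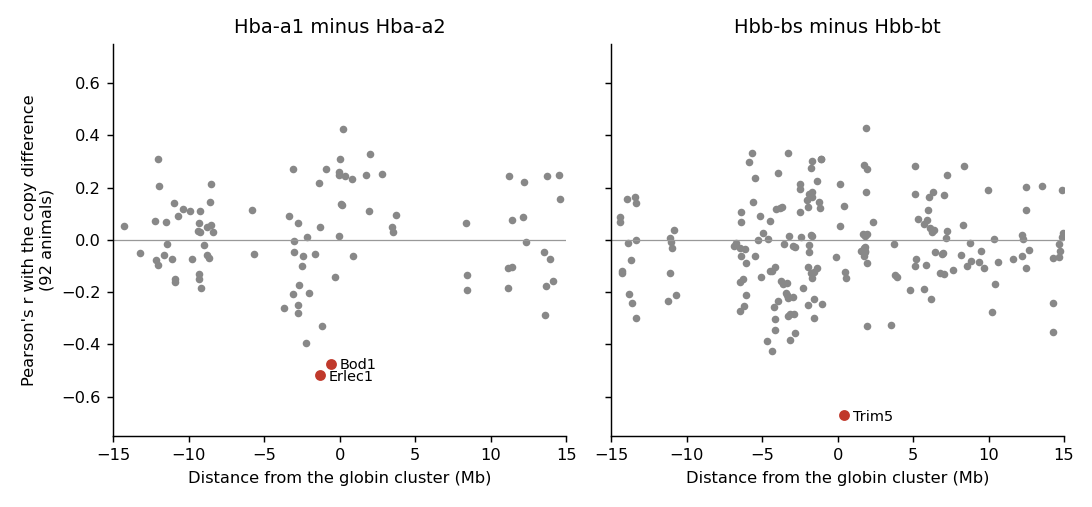
Pearson's r over 92 animals between each gene and the copy difference of the alpha (left) or beta (right) cluster, against the gene's distance in Mb from that cluster; red points passed at an adjusted p below 0.05 over the whole table. Erlec1 (-0.518), Bod1 (-0.474) and Trim5 (-0.672) are the lowest points of their panels.

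Outside the set, the same 5 genes were most like every member, among genes with a mean of at least 1. With Alas2 they were Tent5c, a poly(A) polymerase (r 0.917), Ube2l6, a ubiquitin-like conjugating enzyme (0.872), Mkrn1, a ubiquitin ligase (0.863), Cdr2 (0.790) and Rsad2, an interferon-induced enzyme (0.689). With Hbb-bs the values were 0.937, 0.874, 0.842, 0.793 and 0.687 in the same order. With Hba-a2 all were lower, from 0.656 for Tent5c to 0.514 for Rsad2. Leaving out the 2 animals farthest from the median of Alas2, r was 0.883 for Tent5c and 0.570 for Rsad2.

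At the other end, 1 gene fell with Alas2: Ran, the GTPase of nuclear transport (r -0.424, slope -0.06 ± 0.01 per SD, adjusted p 0.0182). Without the animal highest for every member its slope was -0.04 at an adjusted p of 0.215, and with 3 principal components as covariates the adjusted p was 0.471. The next lowest r with Alas2 belonged to Eif5a (-0.383), Cdh13 (-0.374), Pigo (-0.373) and Hat1 (-0.365), with adjusted p of 0.0698 to 0.126. With Hbb-bs, Pigo, which helps build membrane anchors, was lowest (r -0.412, slope -0.14 ± 0.03, adjusted p 0.0179), then Ran (-0.406, adjusted p 0.0354), Tmed10 (-0.368), Hat1 (-0.365) and Snrpe (-0.365). Neither call held in every fit. Pigo had an adjusted p of 0.0251 without the animal highest for every member, 0.0502 without the 2 farthest animals, 0.0512 with 3 principal components and 0.255 with run as a covariate, and Ran 0.262, 0.269, 0.741 and 0.0967 in the same order.

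Messages typical of late erythroid cells rose with Alas2 in part. Of 26 listed genes 20 were measured, 8 rose and 0 fell in limma, and the median slope was 0.06 against -0.000924 for all genes. Tent5c ran from 0.78 through 2.41 to 7.57 and rose by 0.93 ± 0.04 (SE) per SD of Alas2. Ube2l6 rose by 0.71 ± 0.04, Isg20, an exonuclease, by 0.58 ± 0.05 and Mkrn1 by 0.53 ± 0.03.

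Another 3 were abundant in muscle and moved little. Bpgm, which makes the phosphoglycerate that lowers haemoglobin's oxygen affinity, averaged 6.58 and rose by 0.13 ± 0.02, Ube2o by 0.12 ± 0.02 and Dcaf12 by 0.11 ± 0.02. Riok3 (mean 7.40) and Mgst3 (6.42), the most abundant of the list besides Bpgm, had slopes of 0.03 and 0.03 at adjusted p of 0.735 and 0.796. Without the animal highest for every member, 6 of the 20 rose. Bpgm and Ube2o then had adjusted p of 0.0903 and 0.0587, while Tent5c stayed at 7.16e-31 with a slope of 0.78.

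The haem pathway apart from Alas2 moved in 3 of 16 measured genes, and 0 fell. Slc25a37, which brings iron into mitochondria, rose by 0.18 ± 0.03 per SD of Alas2 (adjusted p 4.08e-06), Slc25a39, a mitochondrial carrier, by 0.13 ± 0.02 (0.000382), and Fech, which inserts the iron, by 0.11 ± 0.02 (5.08e-06). Without the animal highest for every member, 0 of the 16 passed in limma, and the adjusted p were 0.0640, 0.158 and 0.0609, so these 3 calls rest on that animal. Alas1, the form of Alas2 that other tissues use, averaged 6.44 and had a slope of 0.02 ± 0.02 (adjusted p 0.869). Clpx, a mitochondrial unfoldase, averaged 6.29 with a slope of 0.01 ± 0.02.

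Of the red-cell membrane and skeleton list 10 of 20 genes were measured. Epb41, a linker of spectrin and actin, rose by 0.15 ± 0.03 (adjusted p 0.000104), and its adjusted p was 0.203 without the animal highest for every member. The most abundant, Ank1 (mean 9.03), Cd24a (8.65) and Sptb (8.45), had slopes of -0.01 ± 0.02, -0.06 ± 0.04 and -0.04 ± 0.03, none past the threshold. These are also expressed by muscle.

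Of erythroid regulators 8 of 15 were measured and 0 passed, 2 having an unadjusted p below 0.05, as had 9.79% of all genes. Those 2 had positive slopes, and 5 of all 8 slopes were positive. The most abundant were nearly flat. Eif2ak1, the haem-regulated kinase, averaged 5.87, Zbtb7a, a repressor of fetal globin, 5.58 and Nfe2l2 5.13, with slopes of -0.01, 0.01 and -0.04. Of other globins 2 of 12 were measured, and 0 passed, also at an unadjusted p below 0.05. Myoglobin (Mb), the oxygen store of the fibre, averaged 10.60 with a slope of 0.05 ± 0.05 (adjusted p 0.782), and cytoglobin (Cygb) averaged 3.37 with a slope of 0.07 ± 0.04 (adjusted p 0.511).

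Lists for other blood and tissue cells did not pass with Alas2. Of platelet genes 4 of 14 were measured and 0 passed in limma, 3 having an unadjusted p below 0.05 with a positive slope (summed level 2.32 to 4.54, smallest adjusted p 0.190). Of neutrophil genes 2 of 14 were measured (-0.62 to 2.67), of lymphocyte genes 1 of 15 (Ighm, 3.87 to 9.45), and 0 passed at either threshold. How far other blood cells move with the erythroid genes was not tested further.

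Endothelial genes (16 of 16 measured, summed level 8.61 to 9.91) had 2 with an unadjusted p below 0.05 and 15 positive slopes, vascular smooth muscle and pericyte genes (12 of 12, 11.53 to 11.96) 4 and 11, and macrophage genes (12 of 14, 5.62 to 9.57) 1 and 12. All of those with an unadjusted p below 0.05 had positive slopes. Over all genes, 9.79% had an unadjusted p below 0.05 with Alas2, and the median slope was -0.000924. Muscle fibre genes (12 of 12, 16.96 to 17.82) had 4 positive slopes. At an unadjusted p below 0.05 they had 3 genes, all with negative slopes: Pvalb (-0.06), Atp2a1 (-0.04) and Casq1 (-0.05). Adipocyte genes (10 of 10, 8.39 to 11.52) had 0, and iron-handling genes (14 of 15, 10.14 to 10.65) had 3, of which 2 slopes were positive and 1 negative. In each of these lists 0 passed after adjustment.

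Over all 13440 genes, 31 were called with Alas2: 4 members, 12 genes of the lists and 15 others. Outside the members, 12 genes were called with each of the 5 and 24 with each of the 4 other than Hba-a2. Without the animal highest for every member the count with Alas2 was 20, with Hba-a1 22 in place of 37 and with Hbb-bt 20 in place of 33. With Hbb-bs it was 28 in place of 36 and with Hba-a2 13 in place of 16. The calls with Alas2 then held 4 members, 6 listed genes and 10 others, all rising.

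Erythroid means were not the same in the runs of title numbers, but no member passed the test of that difference over the whole table. Hbb-bs averaged 8.82 ± 1.14, 9.08 ± 1.40, 8.20 ± 0.65, 8.26 ± 0.89 and 7.42 ± 0.75 (SD) in runs 1 to 5 (n = 33, 14, 21, 11 and 13). Alas2 averaged 4.09 ± 1.11, 4.17 ± 1.61, 3.53 ± 0.75, 3.44 ± 1.09 and 2.70 ± 0.82, and Hba-a1 8.86 ± 1.24, 9.20 ± 1.53, 8.25 ± 0.65, 8.27 ± 0.93 and 7.47 ± 0.77. Run 5 had the lowest mean of these 3 genes, and the values of all runs overlapped. The run 2 means rest on the animal highest for every member: without it they were 8.77 for Hbb-bs, 3.82 for Alas2 and 8.86 for Hba-a1 (n = 13), at or below those of run 1.

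The lesser copies followed, with Hba-a2 at means of 6.49 and 6.47 in runs 1 and 2 (6.19 in run 2 without that animal) and 5.18 in run 5, and Hbb-bt at medians of 6.22 in run 2 and 4.81 in run 5. In limma's moderated F test over the 5 runs, the adjusted p was 0.224 for Hbb-bs, 0.226 for Hba-a1, 0.302 for Alas2, 0.323 for Hbb-bt and 0.579 for Hba-a2. So 0 of the 5 passed, against 0.0149% of all genes (2), while all 5 had an unadjusted p below 0.05 (0.000124 for Hbb-bs to 0.0385 for Hba-a2), as did 8.33% of all genes. Without run 5 the unadjusted p were 0.0373 for Hbb-bs, 0.0403 for Hba-a1 and 0.119 to 0.433 for the others.

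**Figure D5:**
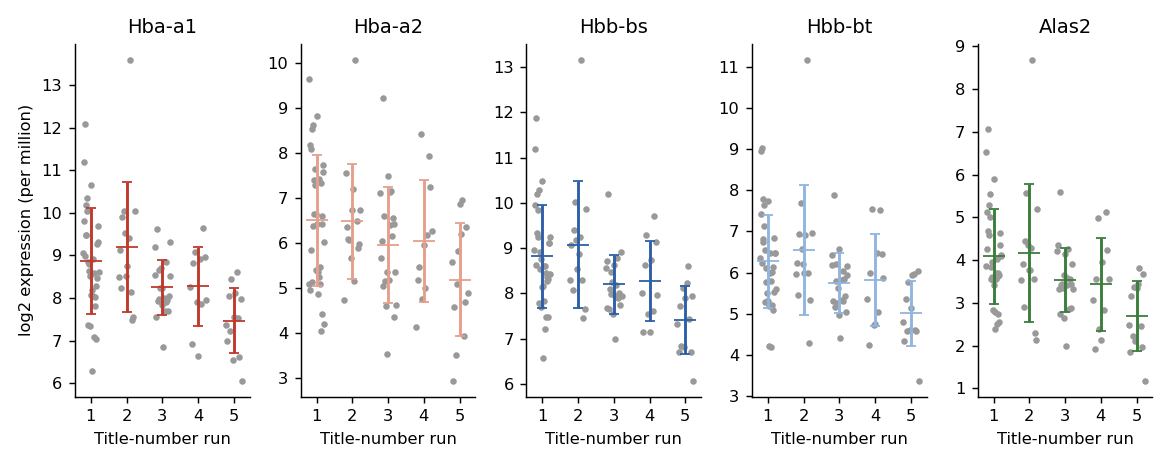
Log2 expression of each gene (1 panel each, y axes differ) in the animals of the 5 title-number runs; grey points are animals, coloured bars the mean and SD of a run. Run 5 has the lowest mean in every panel (7.42 for Hbb-bs, 2.70 for Alas2), and the runs overlap.

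With the number in the library name, a possible order of processing, 0 of the 5 members changed in limma, against 0.61% of all genes (82), and 0 had an unadjusted p below 0.05, against 14.3% of all genes. Slopes ran from -0.21 for Hba-a1 to -0.15 for Alas2 per SD of the number, with adjusted p of 0.434 to 0.652. What the labels' numbers mean for blood content was not tested.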

How the data were processed

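Polyadenylated RNA of quadriceps from 92 DOz mice had been sequenced (KAPA mRNA HyperPrep, per the labels' protocols). The authors deposited 1 table of log2 values. The submitters' processing notes name kallisto 0.50.1, edgeR, bcl2fastq, MultiQC and mm10, with no order. The scaling, prior count and filter are not given in the sources used here. Anti-logs add up to a median of 1006085 per sample, so the deposited log2 values were read as per-million values, and read depth is unknown. Of 13456 lines, 15 repeats were removed, leaving 13441 genes. Every value column matched 1 sample title.

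Because the table holds log2 values and not counts, limma 3.58.1 (R 4.3.3) was fitted to all genes with its trend option, and p-values were adjusted by Benjamini-Hochberg with a threshold of 0.05: slopes on each member and copy difference, an F test over runs, and a slope on library number. Nothing says whether some animals share a litter or cage, and p-values measure the spread between these samples. Correlations used two-sided permutation tests with 100000 resamples. The code was tested on simulated data. Positions and transcripts are from GENCODE M21, promoters from RefSeq. For 13255 genes a position was found.

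The 5 members and the gene lists were chosen with earlier results of these data known. Named genes are the 5 members, the 5 genes of highest r with each member and of lowest r with Alas2 and Hbb-bs (mean of at least 1), the genes called with a copy difference, up to 5 called genes per list by slope, and the 3 most abundant of each erythroid or globin list. One gene that the rule names is not reported here. Ube2o, Dcaf12, Slc25a39, Stk10, Eml6, Rps3, Ilk, Plekhb1, Pvalb, Atp2a1 and Casq1 were described after their values were seen where the rule did not name them. Alternatives were another log scale, a filter on low genes, centring, runs, library number or 3 principal components as covariates, and leaving out extreme animals.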

Additional observations from a re-analysis of the deposited data

How the results depend on the processing

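Of all recomputed values, 101 stayed within the limits set for no change, which for counts is 1.5 times, and 17 moved. Correlations between members and the genes called with Hba-a1 minus Hba-a2 were among those that stayed. The mean alpha to beta balance moved by less than 1 SD between animals, from 0.14 to 0.08 per base and 0.11 with averaged log2 values, while the animals above 0 went from 80 to 64 and 58. Leaving out the 2 farthest animals gave 19 genes with Hba-a1, 10 with Hba-a2, 17 with Hbb-bs, 13 with Hbb-bt and 15 with Alas2. Leaving out the animal highest for every member, an alternative chosen after seeing the data, gave 22 with Hba-a1, 20 with Hbb-bt and 20 with Alas2. With Hbb-bs minus Hbb-bt, a filter on genes with a mean of at least 1 gave 0 calls, as it removes Trim5, and 3 principal components as covariates gave 10. The count of genes differing between runs was 1 after centring on the sample median, 0 with the 3 principal components and 0 without run 5, the last chosen after seeing the data. With library-name number the count was 139 under the filter, 43 after centring and 45 with the 3 principal components. At a step of 0.5 the count of 2-level splits was 1 in place of 0. The causes of these moves other than fewer genes or animals were not tested. No paired analysis was possible because all animals form 1 group.

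Read depth is unknown, so no value carries a counting error, and genes near the floor, such as Trim5, are the least certain. The split of reads between Hba-a1 and Hba-a2 rests on few distinguishing bases. Sums of the deposited levels do not depend on the split, while the balance per base and the balance from averaged log2 values do.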
